A study of Homo sapiens with 6 samples.

Results

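Rh30 is a cell line grown from a human alveolar rhabdomyosarcoma, a childhood tumour with features of embryonic skeletal muscle, and it carries the PAX3-FOXO1 fusion gene. Described here is what these cells expressed at baseline: the 3 arrays of cells given a control siRNA, chosen by their labels, out of 6 arrays in the series. All 6 were of Rh30 cells with RNA taken 72 h after transfection, and the other 3 received an siRNA against P/CAF, an acetyltransferase encoded by KAT2B. Those other arrays were not used here, and no comparison between groups was made. The labels do not say that the 3 control arrays came from separate cultures, so the spread between them may be technical. A single established line stands for the tumour, and there was neither an untransfected culture nor normal muscle beside it. Whatever transfection itself does to the cells is therefore part of the baseline. The labels give no sequence for the control siRNA.

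Skeletal muscle identity is set by 4 myogenic basic helix-loop-helix factors, MYOD1, MYF5, MYOG and MYF6, which pair with E proteins such as TCF3 and TCF12 and bind the E-box CANNTG in muscle promoters. ID proteins lack a DNA-binding region and hold the E proteins away from them. Upstream of these factors in the embryo lies PAX3, whose DNA-binding part is joined in the fusion to the activating part of FOXO1. The resulting protein is known to drive FGFR4, MYCN, MYOD1 and other genes in alveolar rhabdomyosarcoma, while the cells go on dividing and do not finish muscle differentiation.

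Each array gave, for 47323 probes, a bead signal on a linear scale and a score taken to be 1 minus its detection p-value. A probe was called detected on an array when this score exceeded 0.95. Probes with 1 gene symbol were named, each of 20046 genes was read by its probe of highest mean signal, and its percentile was the rank of that signal among these genes. Probes bind with different strength, so a percentile ranks signals and not numbers of transcripts. The median signal was 89.7, 79.1 and 87.3 on arrays 1 to 3, and the lowest signal called detected was 95.7, 84.9 and 93.7. The number of arrays limits the precision of every mean given below.

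Array 3 stood somewhat apart from arrays 1 and 2. Over the genes detected on all 3 arrays, log2 signals correlated across genes at 0.992 between arrays 1 and 2, at 0.983 between arrays 1 and 3 and at 0.979 between arrays 2 and 3. The difference between arrays 1 and 2 exceeded 1 on the log2 scale for 42 genes, against 86 genes between arrays 1 and 3 and 224 genes between arrays 2 and 3. The median departure of array 3 was 0.11 over all detected genes, and it is given beside some of the lists but not all. Other lists also departed, fusion partner and related forkhead genes by 0.31, smooth muscle markers by -0.28 and cancer-testis genes by -0.15. Without array 3, 11196 genes were detected on both remaining arrays.

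On all 3 arrays together, 10998 of the 20046 named genes were detected, which is 54.9% of them, and 7474 genes, 37.3%, were detected on none. A further 613 genes were detected on 2 arrays and 961 on 1. After background correction and normalization the median log2 signal was 9.15 for detected genes and 4.61 for genes detected on no array. The dimmest gene detected on all 3 arrays had a mean log2 signal of 5.21, which is percentile 42.5. Percentiles below that level order signals that are close to the background of the array.

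Promoters of 4 genes are shown because they stand for both ends of the muscle and cell cycle programmes described below: MYOG and CHRNA1 are muscle genes with bright signals, CDK4 had the brightest signal among cell cycle genes, and MYF6 is a muscle factor that was not detected. The sequences are from RefSeq (GRCh38.p14), run 5′ to 3′ on the gene's strand from 250 bases before to 50 bases after the annotated start, and have every CANNTG in capitals. In MYF6 the capitals also mark a TATAAA.
MYOG (chr1:203085963-203086262, minus strand): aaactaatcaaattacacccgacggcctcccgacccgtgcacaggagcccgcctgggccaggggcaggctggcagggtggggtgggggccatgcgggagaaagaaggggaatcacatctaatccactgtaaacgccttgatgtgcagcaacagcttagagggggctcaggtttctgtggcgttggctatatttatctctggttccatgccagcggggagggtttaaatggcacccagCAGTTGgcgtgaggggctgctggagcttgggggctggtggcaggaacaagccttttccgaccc
CHRNA1 (chr2:174764423-174764722, minus strand): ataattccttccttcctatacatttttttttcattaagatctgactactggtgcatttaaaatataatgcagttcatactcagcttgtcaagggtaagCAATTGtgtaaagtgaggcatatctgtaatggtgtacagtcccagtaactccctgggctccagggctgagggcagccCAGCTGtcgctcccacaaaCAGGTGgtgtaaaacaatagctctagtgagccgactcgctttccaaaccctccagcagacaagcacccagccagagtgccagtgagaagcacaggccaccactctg
CDK4 (chr12:57752261-57752560, minus strand): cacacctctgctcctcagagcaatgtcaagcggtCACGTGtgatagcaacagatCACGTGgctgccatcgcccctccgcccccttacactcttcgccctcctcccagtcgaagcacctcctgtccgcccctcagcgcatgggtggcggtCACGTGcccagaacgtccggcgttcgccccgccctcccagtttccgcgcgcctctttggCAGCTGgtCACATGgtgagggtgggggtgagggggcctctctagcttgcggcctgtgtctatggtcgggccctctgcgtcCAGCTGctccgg
MYF6 (chr12:80707384-80707683, plus strand): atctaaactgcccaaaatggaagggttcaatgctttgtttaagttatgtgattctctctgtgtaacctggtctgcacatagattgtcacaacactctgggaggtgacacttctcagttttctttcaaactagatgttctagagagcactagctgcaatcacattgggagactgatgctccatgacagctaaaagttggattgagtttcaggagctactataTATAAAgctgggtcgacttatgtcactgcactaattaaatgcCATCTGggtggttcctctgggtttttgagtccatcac

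The capitals show 1 E-box in the MYOG window, 3 in the CHRNA1 window, 1 in the MYF6 window and 6 in the CDK4 window. In CDK4, 3 of the 6 read CACGTG, the form that MYC proteins bind. An E-box was present in 68.9% of the promoters of all 27305 genes in the RefSeq table, so its presence alone sets no gene apart. The windows also differed in CpG content. The ratio of observed to expected CpG was 0.72 in CDK4, 0.43 in MYOG, 0.18 in CHRNA1 and 0.076 in MYF6, against a median of 0.77 over 14439 protein-coding genes.

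The brightest signals came mostly from the translation machinery and the cytoskeleton. Among the 25 genes of highest mean signal were EEF1A1, the translation elongation factor, at rank 1, RPL41 at rank 2 and TPT1, a translationally controlled protein, at rank 3, followed by other ribosomal protein genes, the intermediate filament gene VIM and the tubulins TUBA1A and TUBA1C. CDK4, the cyclin D-dependent kinase that lets cells pass into S phase, stood at rank 4. Its signals were 37001.0, 31211.4 and 34744.8 on arrays 1 to 3, a mean log2 signal of 15.06 ± 0.06 (SD, n = 3). Among named genes, the signals of EEF1A1, RPL41 and TPT1 had higher means, and many of the brightest probes carry no gene name, as given further on. F2R, the thrombin receptor, was the brightest surface receptor among these 25 genes, with signals of 33228.5, 29468.5 and 33875.0. Its second probe read far lower, at 872.9, 626.1 and 1048.4, and was detected on all 3 arrays.

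Of 81 cytosolic ribosomal protein genes, 77 were detected on all 3 arrays and 36 were among the 100 brightest genes. They held 7.13%, 7.56% and 6.43% of the background-corrected signal summed over named genes on arrays 1 to 3. Each gene counted by its brightest probe, and probes without a single gene name were left out. Averaged over the arrays, 844 of the 20046 named genes together held 50% of that signal. The top of the ranking was shared, with 85 genes in the top 100 of every array. Of 21 measured housekeeping genes, 17 lay at or above percentile 90 and 20 were detected on all 3 arrays, 95.2% beside 54.9% of all named genes. NPM1, a nucleolar chaperone that dividing cells use, was the exception, with signals of 92.8, 78.7 and 76.4 from its single named probe.

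The 25 brightest names include those of the immune cell receptors LAIR1 and CLEC2D. LAIR1, an inhibitory receptor of leukocytes, had signals of 33521.3, 27385.5 and 31028.9, and CLEC2D, a lectin of lymphocytes, had 34605.9, 26961.9 and 29931.9. The probes of both genes disagreed. The second LAIR1 probe had signals of 82.9, 87.4 and 78.5 and was detected on 1 array. Of the 4 other CLEC2D probes, 1 was detected on all 3 arrays, with a mean log2 signal of 12.55, and the other 3 were detected on none. The chemokine receptor gene CCR6, at rank 59 and so outside these 25, had 25261.1, 26114.9 and 29766.7 from its brightest probe. Its other 2 probes were detected on no array. Which transcripts such probes bind was not tested.

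The 5 genes that mark this line were all detected on all 3 arrays. MYOD1, the factor that commits cells to muscle, had signals of 7248.2, 4617.7 and 6251.3, with a mean log2 signal of 12.53 ± 0.16 (SD, n = 3) at percentile 96.8. MYOG, myogenin, which starts terminal differentiation, had 4733.5, 2790.5 and 3368.5 and lay at percentile 93.8. FGFR4, the fibroblast growth factor receptor that the fusion protein is known to activate, had 5525.2, 3927.1 and 6023.5 and lay at percentile 96.1. All 3 genes lay above percentile 90, and they stayed there with any 1 array left out.

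IGF2, an autocrine growth factor of rhabdomyosarcoma, was lower in the ranking. Its signals were 506.6, 425.4 and 396.6, a mean log2 signal of 8.60 ± 0.27 (SD, n = 3) at percentile 67.8. Ranked only among genes detected on all 3 arrays, IGF2 lay at percentile 41.2. Its second probe was also detected, with a mean log2 signal of 8.19, and the remaining one was not. FGFR4 likewise had a second detected probe, at a mean log2 signal of 10.41, and another that was not detected. With the median over its probes FGFR4 lay at percentile 88.3.

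**Figure D1:**
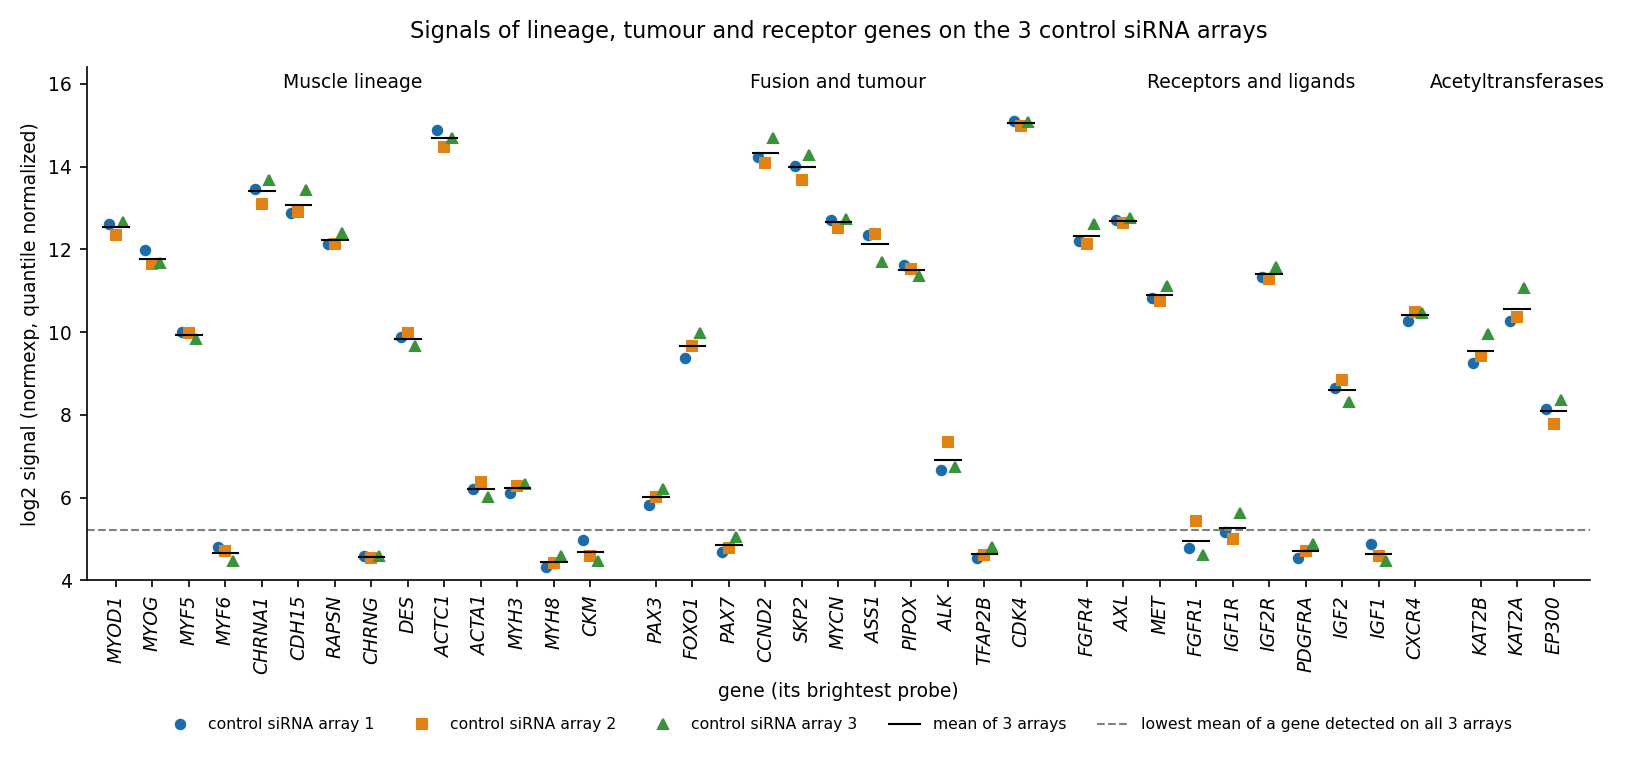
Points give the log2 signal (vertical axis) of each named gene's brightest probe on control siRNA arrays 1 to 3, and black lines give their mean. MYOD1, MYOG, CHRNA1, ACTC1, CCND2 and CDK4 lie far above the dashed line at 5.21, the lowest mean of a gene detected on all 3 arrays, whereas MYF6, CHRNG, MYH8, CKM, PAX7 and PDGFRA lie below it.

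Of 17 measured myogenic factors and their partners, 13 were detected on all 3 arrays, 76.5% beside 54.9% of all named genes, and 3 on none. The median percentile of the list was 79.8, where all named genes have 50. MYF5, which marks muscle precursors, had signals of 1223.0, 869.7 and 1012.3 at percentile 79.8, with both of its probes detected. MYF6, a factor of late muscle differentiation, had 84.1, 71.8 and 66.2, below the lowest detected signal of each array. So 3 of the 4 myogenic factors were detected on all 3 arrays and 1 on none.

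The partners and inhibitors of these factors were detected side by side. TCF12, an E protein, had signals of 3039.9, 1950.1 and 3488.4, and TCF3, another E protein, had 1336.0, 880.7 and 1632.0. Of the ID inhibitors, ID1 had 5550.1, 4364.6 and 3612.4, ID3 had 4532.9, 3447.3 and 2623.4 and ID2 had 2093.1, 1610.6 and 1510.3, at percentiles 95.2, 93.4 and 86.6. ID4 had 58.4, 48.4 and 60.8, at percentile 0.30, and was not detected. MSC, musculin, a repressor of myogenic factors, lay at percentile 86.1. The MEF2 genes, which act with the myogenic factors in differentiation, were detected at lower ranks, MEF2D at percentile 72.2, MEF2C at 68.2 and MEF2A at 56.7. Of the TWIST repressors, TWIST2 was detected on no array and TWIST1 on 2.

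Somite and muscle precursor factors were a mixed list, with 14 of 27 measured genes detected on all 3 arrays and 10 on none, 51.9% detected beside 54.9% of all named genes, and a median percentile of 49.5. Read by each gene's dimmest probe, 8 were detected. SIX4, a homeodomain activator of myogenic genes, was the brightest, with signals of 3145.2, 2433.2 and 3603.5 at percentile 92.4. EYA1, its coactivator, lay at percentile 79.5, PITX1 at 78.2, TBX15 at 77.6, TBX1 at 74.4 and PITX3 at 73.9. The factors of the earliest paraxial mesoderm, TBX6, MESP1, MESP2 and TCF15, were not detected on any array. Neither were PAX7, the factor of satellite cells, nor PAX1, PAX9, MEOX2, BARX2 and DACH1.

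Genes of the muscle surface and the nerve-muscle junction were nearly all detected. Of 25 measured members, 22 were detected on all 3 arrays, 88.0% beside 54.9% of all named genes, and 2 on none. Of the 25, 5 lay at or above percentile 90. CHRNA1, the ligand-binding subunit of the muscle acetylcholine receptor, had signals of 12670.0, 8107.5 and 12096.1, a mean log2 signal of 13.41 ± 0.29 (SD, n = 3), and its other 2 probes were detected as well. CDH15, M-cadherin of muscle precursors, had 8742.5, 6975.4 and 10638.8. RAPSN, which clusters the acetylcholine receptor, had 5197.5, 3947.0 and 5212.7, and CHRNB1, the beta subunit, had 4497.7, 3200.7 and 4441.1.

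The subunits of the acetylcholine receptor were not alike. CHRND, the delta subunit, had signals of 296.4, 205.6 and 252.0, and CHRNE, the adult epsilon subunit, had 105.8, 94.4 and 106.0, close to the detection limit. CHRNG, the fetal gamma subunit and a known surface antigen of rhabdomyosarcoma, had 74.5, 64.7 and 73.7 from its single probe, and was detected on no array. MUSK, the kinase that organises the junction, was also close to the limit, with 103.9, 85.2 and 131.8. VCAM1, an adhesion molecule of fusing myoblasts, was not detected, whereas CAV3, the muscle caveolin, lay at percentile 84.9 and the sarcoglycan SGCE at 94.8.

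Sarcomere and contraction genes split into a bright minority and an undetected group. Of 56 measured members, 24 were detected on all 3 arrays and 26 on none. The detected share was 42.9%, beside 54.9% of all named genes. ACTC1, cardiac alpha-actin, which embryonic skeletal muscle also uses, had signals of 31995.7, 22249.8 and 25194.2 and rank 58. Its second probe had 79.3, 64.1 and 70.5 and was not detected. TPM2 and TPM1, tropomyosins, had 9980.8, 7669.3 and 6826.7 and 6570.6, 4572.0 and 4752.4. Below them came MYL6B at percentile 94.6, the calcium pump ATP2A2 at 93.1, KLHL41 at 90.5, TNNT1, slow troponin T, at 86.9 and MYL4, an embryonic light chain, at 86.4.

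None of the adult myosin heavy chains MYH1, MYH2, MYH4 and MYH7 was detected on any array, nor the perinatal chain MYH8, with signals of 55.6, 57.7 and 73.1. MYH3, the embryonic chain, was detected but dim, with 135.0, 117.9 and 141.6 at percentile 50.9. ACTA1, adult skeletal actin, was dim in the same way, with 140.6, 122.1 and 125.5. CKM, muscle creatine kinase, had 90.4, 66.7 and 66.6, and MB, myoglobin, had 92.4, 68.2 and 68.5, neither of them detected. TNNC2, TNNT3, ACTN3, TCAP, MYOT, CASQ1 and ATP2A1 were likewise detected on no array, while DES, desmin, which appears early in myogenesis, lay at percentile 78.9 and NEB, nebulin, at 82.6. Other genes of the contractile apparatus were detected, among them MYL1, a fast light chain, with 828.3, 737.6 and 514.1, and RYR1, the calcium release channel, with 325.6, 244.3 and 282.9.

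Several of these genes varied more than most. Of the 56 measured sarcomere genes, 6 had an SD over 0.5 on the log2 scale. The median difference of array 3 from the mean of arrays 1 and 2 was -0.15 for the detected members, beside 0.11 for all detected genes. TNNT1, for example, had signals of 2570.5, 1736.5 and 1236.9, and MYL4 had 2148.2, 1846.0 and 1209.2, lowest on array 3 in both. The part of array 3 in the ranks of these genes was not tested.

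Both partner genes of the fusion gave signals. FOXO1 had signals of 811.4, 709.6 and 1124.8, a mean log2 signal of 9.67 ± 0.30 (SD, n = 3) at percentile 77.4. PAX3 was near the detection limit, with 119.7, 107.8 and 136.2, a mean log2 signal of 6.02 ± 0.20 (SD, n = 3) at percentile 49.5. Among genes detected on all 3 arrays it lay at percentile 8.02. Of its 4 probes, 2 were detected on all 3 arrays, 1 on 2 arrays and 1 on none. Which part of a transcript each probe reads is not in the tables used here, so signals of a fusion transcript and of the normal genes cannot be told apart.

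Known target genes of the fusion protein were detected as a group. Of 38 measured targets, 32 were detected on all 3 arrays, 84.2% beside 54.9% of all named genes, and 5 on none, with a median percentile of 75.2. The list was compiled from knowledge of the fusion protein and holds MYOD1, MYOG and FGFR4, which also mark the line. CCND2, cyclin D2, was the brightest, with signals of 22069.2, 16737.9 and 25069.6 at percentile 99.5. SKP2, which marks the CDK inhibitor p27 for degradation, had 18780.2, 12678.6 and 18398.5. MYCN, the MYC family member often raised in alveolar rhabdomyosarcoma, had 7741.4, 5310.3 and 6588.1 at percentile 97.2, and its second probe was detected too.

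Further targets lay in the upper ranks, among them ASS1, argininosuccinate synthase, at percentile 95.4, GADD45A at 95.3, PODXL, a surface sialomucin, at 94.0 and PIPOX, a peroxisomal oxidase, at 92.1. ALK, the receptor kinase, was detected but dim, with signals of 173.0, 184.0 and 170.1, as were DCX at percentile 54.2 and CNR1, the cannabinoid receptor, at 45.4. The 5 targets detected on no array were TFAP2B, with 72.0, 67.5 and 82.2, CDH3, P-cadherin, NOS1, PRKAR2B and NELL1. TFAP2B and CDH3 are used in pathology as markers of fusion-positive tumours. Their mean log2 signals were 4.65 ± 0.14 and 4.55 ± 0.06 (SD, n = 3), below every gene detected on all 3 arrays.

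Genes used to mark fusion-negative rhabdomyosarcoma were also mostly detected, 9 of 12 measured on all 3 arrays and 2 on none, 75% detected beside 54.9% of all named genes. HRAS lay at percentile 87.2, SFRP1, a secreted Wnt modulator, at 86.6, GLI1, a Hedgehog effector, at 85.3 and FBN2, a fibrillin, at 83.5. HMGA2, a marker of fusion-negative tumours, was close to the limit, with signals of 111.2, 90.4 and 103.5, and EGFR had 311.7, 257.3 and 330.5 at percentile 62.5. SFRP2 and DCN were not detected.

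Surface antigens that have been considered as targets in rhabdomyosarcoma were detected on all 3 arrays for 21 of 27 genes, 77.8% beside 54.9% of all named genes, and on none for 5. Read by each gene's dimmest probe, 12 were detected. The median departure of array 3 was 0.35 for the detected members. Beside FGFR4, the brightest were CD44, the hyaluronan receptor, with signals of 5250.5, 3693.8 and 7859.6, CD99, with 5053.3, 3302.8 and 2757.1, and TNFRSF10B, the death receptor DR5, with 2872.6, 1674.1 and 2921.3. CD44 was highest on array 3 and CD99 lowest there. NCAM1 lay at percentile 83.4, CD276, the checkpoint protein B7-H3, at 83.5 and ERBB2 at 74.9. CHRNG, GPC3, ROR1, PROM1 and FOLH1 were not detected.

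Cancer-testis genes, which tumours may switch on although normal tissue outside the germ line keeps them silent, were almost all undetected. Of 34 measured members, 2 were detected on all 3 arrays and 26 on none, where 37.3% of all named genes were detected on none. PRAME, a common antigen of this class, had signals of 83.6, 69.2 and 79.4, and MAGEA3 had 80.9, 67.7 and 79.2. The 2 detected genes were TDRD1, a piRNA pathway protein, with 901.0, 642.0 and 886.8 at percentile 76.3, and SOHLH1, a germ cell factor, with 302.8, 217.2 and 228.9. Without array 1, 4 members were detected on both remaining arrays.

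**Figure D2:**
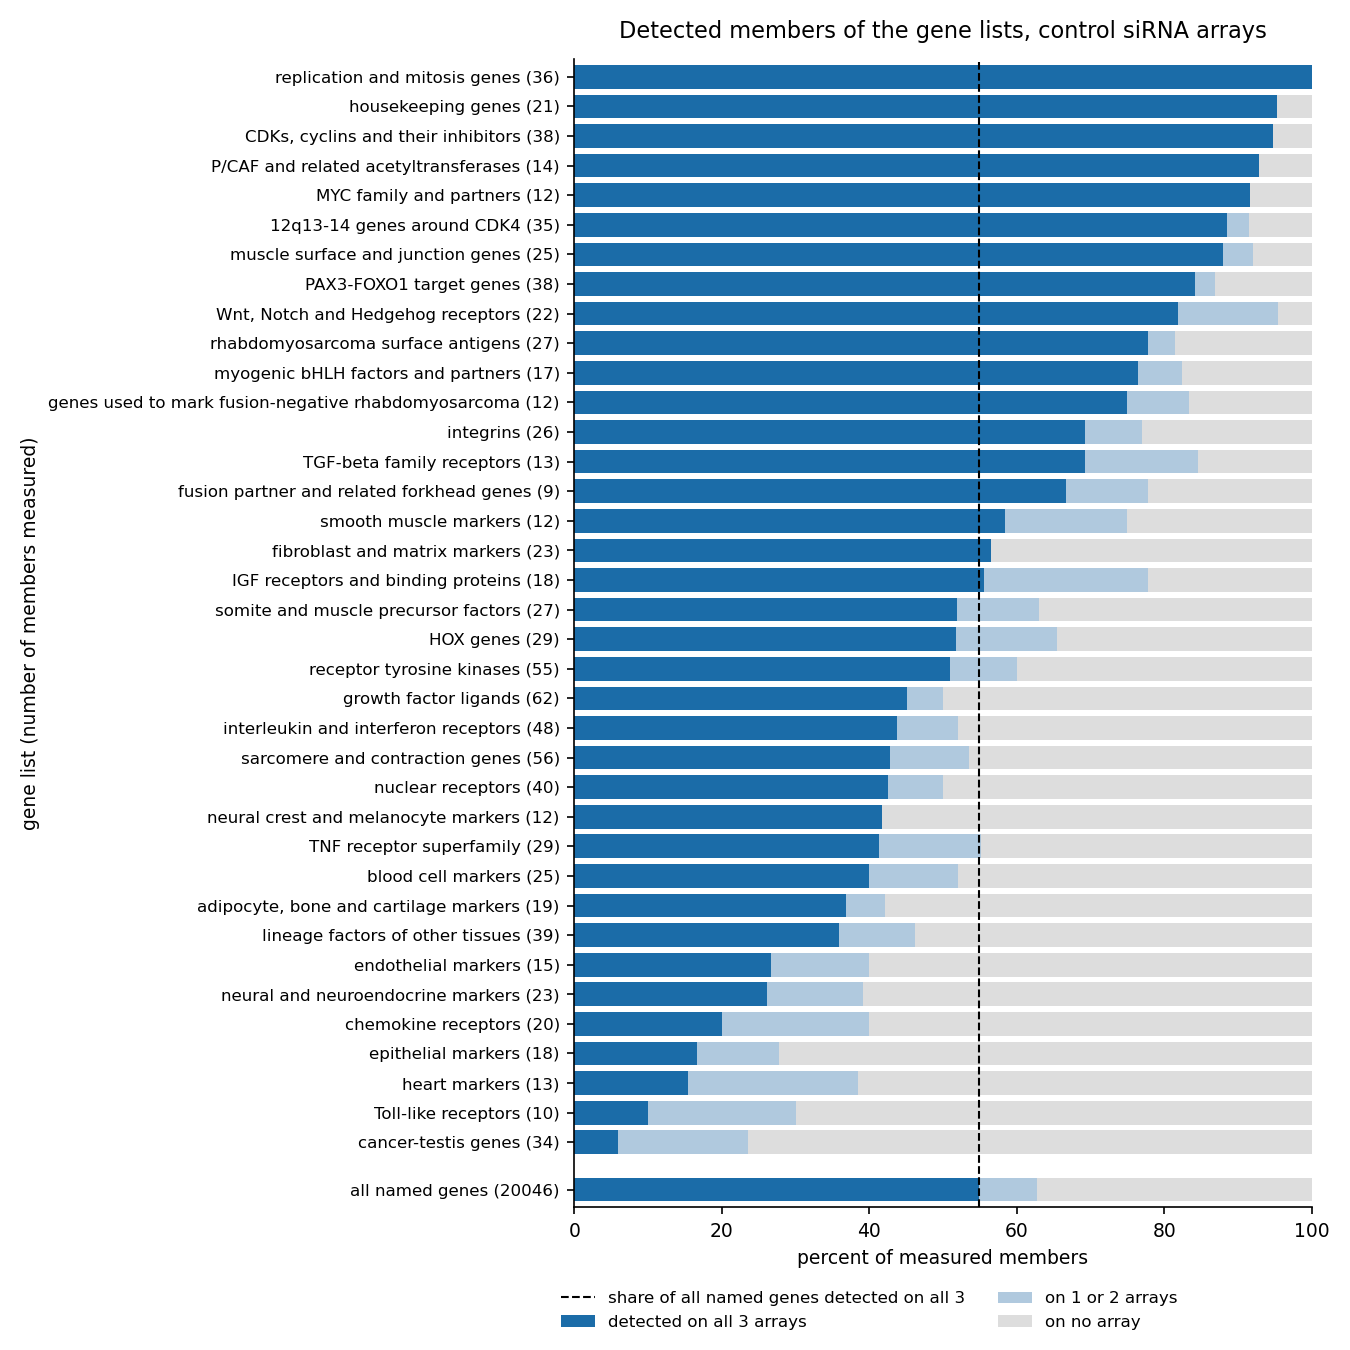
Bars give, for each gene list, the percent of measured members detected on all 3 control siRNA arrays, on 1 or 2 and on none, with all 20046 named genes at the bottom and their 54.9% as a dashed line. Replication genes, cyclins, muscle surface genes and fusion targets lie right of the line, and cancer-testis genes, Toll-like receptors and heart, epithelial and neural markers lie left of it.

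CDK4 lies among genes with bright signals on chromosome 12, in a region known to be amplified in some alveolar rhabdomyosarcomas. Copy number was not analysed here. In the order of the RefSeq gene table, the 5 named genes on each side together with CDK4 had a median percentile of 93.3, and 10 of these 11 genes were detected on all 3 arrays. The median over all 19693 windows of 11 neighbouring genes was 51.9. The window around CDK4 ranked 13 among them, 74 among windows of 7 genes and 9 among windows of 21 genes.

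Bright genes on the side after CDK4 included 5 with the signals given here. METTL1, a tRNA methyltransferase, had signals of 11999.2, 9383.9 and 9928.4, EEF1AKMT3, which methylates the elongation factor eEF1A, had 13124.5, 11153.7 and 16524.2, and TSFM, a mitochondrial elongation factor, had 9360.2, 6547.3 and 5241.7. CTDSP2, a phosphatase, had 15188.4, 12929.7 and 20474.0 and ATP23, a mitochondrial protease, had 15229.3, 11838.1 and 10218.3. All 5 lay at or above percentile 97.4. Windows overlap, so neighbouring window medians are not separate observations. The window centred on EEF1AKMT3 and the next one, centred on TSFM, shared the highest median of all windows, 97.4, and the TSFM window ranked 1 on each array taken alone. Over windows of 21 genes the highest median lay around B4GALNT1, on the other side of CDK4, and the TSFM window ranked 591. With each gene's dimmest probe, the highest median lay around ARHGAP9, and the TSFM window ranked 16.

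The bright genes did not form an unbroken run. On the side before CDK4 they included OS9, at percentile 96.6, DCTN2 at 96.7, MBD6 at 97.2, MARS1, methionyl-tRNA synthetase, at 99.3, INHBE at 97.0 and SHMT2, mitochondrial serine hydroxymethyltransferase, at 99.8. Dim genes stood in between. KIF5A, a kinesin of neurons, had signals of 81.4, 71.9 and 91.1 and was not detected, and AVIL, an actin-binding protein that lies between TSFM and CTDSP2, was detected at percentile 51.9. Closer to CDK4, AGAP2 lay at percentile 43.8 and was detected on 2 arrays, and AGAP2-AS1 lay at 45.9. On the side after CDK4, ATP23 was the last of the genes shown to lie above percentile 90. This end point was chosen from the same percentiles, so a difference between the medians before and after it follows in part from that choice. Of the next 21 genes, 12 were detected on all 3 arrays, with a median percentile of 57.4. The 9 genes after CDK4 up to ATP23 had a median of 97.4. Among the 21, RXYLT1 lay at percentile 89.5, above MARCHF9, at 86.7, among the 9.

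INHBE, an activin subunit of the liver, had signals of 4348.9, 6618.3 and 8721.7 on arrays 1 to 3 and an SD of 0.66 on the log2 scale. It was lowest on array 1 and highest on array 3.

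Of 31 windows with a median above 90, 18 were on chromosome 12, which holds 5.18% of all windows, and the others were on chromosomes 2, 17 and 21. Part of the chromosome 12 windows lay in another stretch, around ERBB3, PA2G4 and RPL41, with a median percentile of 94.6. On chromosome 21 the window centred on DONSON had a median of 93.6, and on chromosome 2 that centred on DCTN1 had 93.4. The window around MYCN, at 62.5, and that around MDM2, at 64.9, lay nearer the median of all windows. MDM2, the p53 ligase that lies further along chromosome 12, was itself dim, with signals of 118.7, 95.5 and 125.9.

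**Figure D3:**
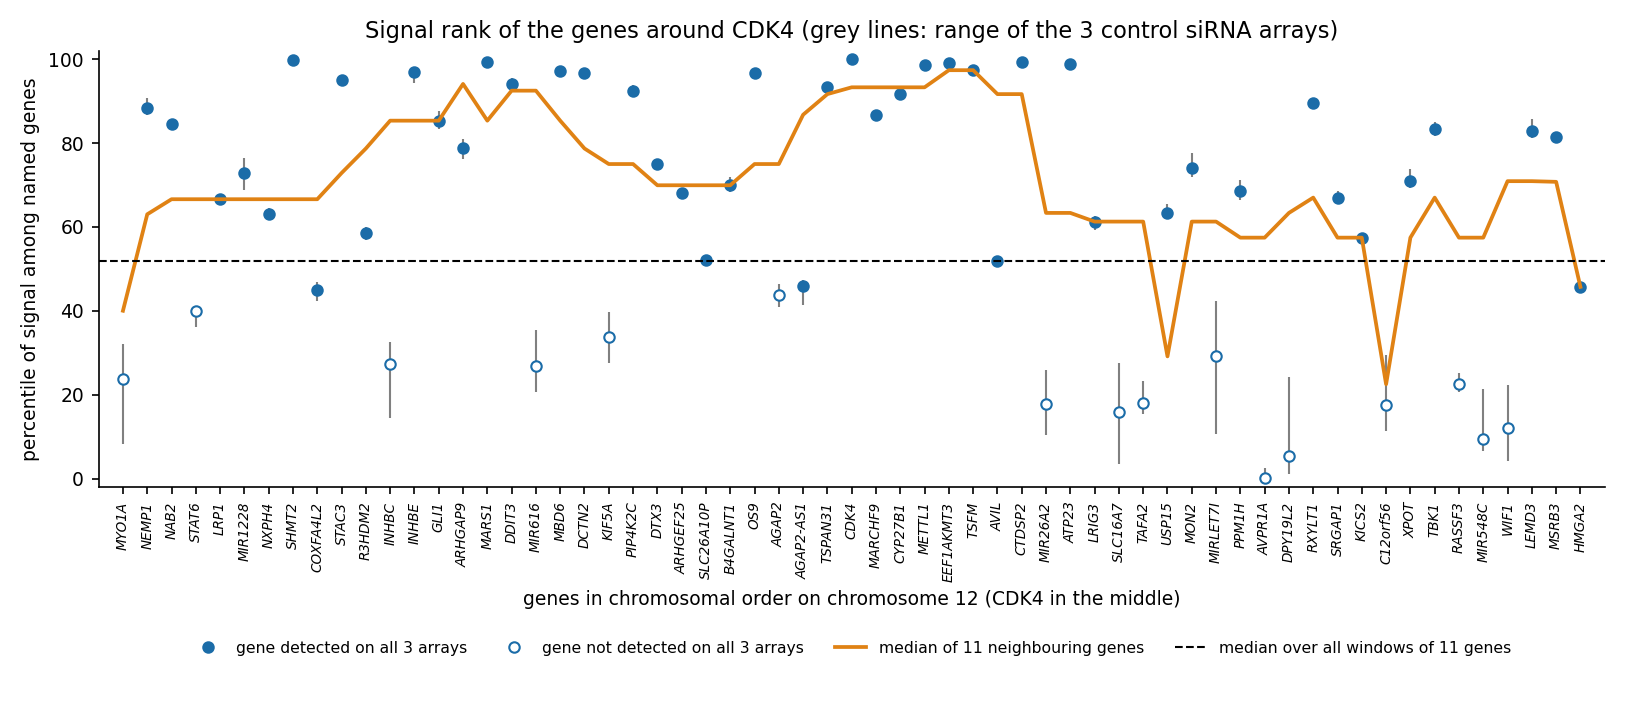
Each point is the percentile (vertical axis) of 1 of 61 named genes in their order around CDK4 on chromosome 12, with grey lines for the range over the 3 control siRNA arrays; the orange line is the median of 11 neighbouring genes and the dashed line, at 51.9, the median over all such windows. The orange line stays above 90 from TSPAN31 to CTDSP2 and drops to 63.3 at MIR26A2 and ATP23.

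Of 55 measured receptor tyrosine kinases, 28 were detected on all 3 arrays, 50.9% beside 54.9% of all named genes, and 22 on none. With the dimmest probe 18 were detected, and the median departure of array 3 was 0.29. AXL, the receptor for GAS6, was the brightest, with signals of 7718.8, 5645.6 and 6697.3, a mean log2 signal of 12.70 ± 0.07 (SD, n = 3), ahead of FGFR4. RYK, a Wnt co-receptor, had 2615.9, 1700.1 and 2607.1, and MET, the receptor for hepatocyte growth factor, had 2112.6, 1488.6 and 2369.3. TYRO3, of the AXL family, DDR1, a collagen receptor, PTK7 and ERBB2 followed at percentiles 76.4, 77.8, 77.4 and 74.9.

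Within the fibroblast growth factor receptors FGFR4 stood alone in the upper ranks. FGFR3 had signals of 198.2, 206.4 and 284.7, FGFR2 was not detected, with 54.1, 65.3 and 57.7, and FGFR1 had 82.8, 90.8 and 74.8 and was detected on 1 array. FGFR1 has 2 named probes, and the other was detected on none. Receptors of other lineages, among them KIT, FLT3, PDGFRA, KDR, FLT1, NTRK2, ERBB4 and RET, were detected on no array. PDGFRB, by contrast, had 378.1, 385.6 and 643.1, and CSF1R, known from macrophages, had 373.3, 284.9 and 332.4.

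The insulin-like growth factor axis was uneven. IGF2R, which clears IGF2, had signals of 2973.9, 2147.4 and 3160.4, while IGF1R, the signalling receptor, had 96.3, 79.7 and 108.5 from its only probe, detected on 2 arrays. INSR, the insulin receptor, was detected on 1 array. IGF1 and H19, the noncoding neighbour of IGF2, were not detected. The RNA-binding proteins IGF2BP2 and IGF2BP3, which bind IGF2 transcripts, lay at percentiles 92.5 and 90.4, and the adaptors IRS1 and IRS2 at 73.8 and 71.6. Of the binding proteins, IGFBP6 lay at percentile 67.4, IGFBP2 at 60.7 and IGFBP5 at 59.8, and IGFBP1 and IGFBP3 were not detected.

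Of 62 measured growth factor ligands, 28 were detected on all 3 arrays and 31 on none, 45.2% detected beside 54.9% of all named genes. With the dimmest probe 14 were detected. VEGFB, of the vascular growth factor family, was the brightest, with signals of 6025.5, 5317.7 and 4892.2, followed by MDK, midkine, at percentile 86.7, PDGFC at 84.1, HBEGF, a ligand of EGFR, at 79.2, FGF13 at 77.6, VEGFC at 75.4, PGF at 75.1 and AGRN, agrin, at 74.2. FGF8, a listed fusion target, had 839.6, 697.2 and 544.8, and GAS6, the ligand of AXL, had 254.8, 215.6 and 254.9. HGF, the ligand of MET, was not detected, with 67.3, 72.4 and 78.3, nor was FGF19, a ligand of FGFR4. So the ligand of AXL was detected and that of MET was not.

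Receptors of developmental pathways were detected on all 3 arrays for 18 of 22 genes of Wnt, Notch and Hedgehog, 81.8%, and for 9 of 13 genes of the TGF-beta family, 69.2%, beside 54.9% of all named genes. GAS1, a Hedgehog co-receptor, had signals of 7517.8, 6665.2 and 7259.0 at percentile 97.5, NOTCH1 had 1215.4, 1001.1 and 1355.6, and HHIP, a Hedgehog-binding inhibitor, lay at percentile 81.9, FZD2 at 80.3 and LRP5 at 76.9. SMO, the Hedgehog transducer, lay at percentile 68.2 and PTCH1 at 55.4. FZD9 was the only member of this list detected on no array. TGFBR2 lay at percentile 91.4, ACVR1, an activin receptor-like kinase, at 86.6, BMPR2 at 77.7 and ACVR2A at 76.4, with ACVRL1 and AMHR2 not detected. The median departure of array 3 was 0.44 for the detected TGF-beta family receptors.

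Integrins were detected on all 3 arrays for 18 of 26 genes, 69.2% beside 54.9% of all named genes, and the median departure of array 3 was 0.35. ITGB1, the common beta subunit, had signals of 15824.7, 11487.1 and 17297.7, ITGB5 had 3080.5, 2517.4 and 4057.9 and ITGAV had 2846.7, 1958.6 and 3244.8. ITGB2, the beta subunit of leukocytes, had 6662.4, 6625.1 and 8747.5, and both of its probes were bright, with mean log2 signals of 12.82 and 12.81. Its leukocyte partners ITGAL, ITGAX and ITGAD were detected on no array and ITGAM on 1. ITGA7, the laminin-binding subunit of muscle, was close to the limit, with 117.4, 106.1 and 139.1.

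Nuclear receptors were detected on all 3 arrays for 17 of 40 genes and on none for 20, 42.5% detected beside 54.9% of all named genes. With the dimmest probe 9 were detected. RARA, a retinoic acid receptor, had signals of 3174.1, 2162.6 and 4133.1, and its partner RXRA had 2293.4, 2236.4 and 2922.3. NR2F6 lay at percentile 81.4, RXRB at 75.1, NR2C1 at 72.0 and NR3C1, the glucocorticoid receptor, at 57.5. ESR1, ESR2, PGR, PPARG, VDR, RARB and RARG were not detected.

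Of 20 chemokine receptors, 4 were detected on all 3 arrays, CCR6 among them, and 12 on none. Of 10 Toll-like receptors, 1 was detected on all 3 arrays and 7 on none. The detected shares were 20% and 10%, beside 54.9% of all named genes, and with the dimmest probe 2 members of each list were detected. CXCR4, the receptor for CXCL12 and a listed fusion target, had signals of 1465.5, 1232.5 and 1517.6, and ACKR3, the other CXCL12 receptor, had 700.6, 623.6 and 757.8. CCR7 was at the limit, with 97.5, 92.0 and 104.3. TLR4, the receptor for endotoxin, had 253.3, 192.5 and 339.2, and array 3 departed by 0.60. The brightest probe of TLR6 was detected on 2 arrays and its other probe, with 106.4, 84.9 and 96.7, on all 3. Without array 2, a further Toll-like receptor was detected on both remaining arrays.

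Of 48 interleukin, interferon and related receptors, 21 were detected on all 3 arrays and 23 on none, 43.8% detected beside 54.9% of all named genes. With the dimmest probe 11 were detected. CSF2RA, the alpha chain of the GM-CSF receptor, had signals of 4947.8, 4060.2 and 4739.5, while its signalling partner CSF2RB was not detected. IFNGR2 lay at percentile 95.3 and IFNGR1 at 83.3, IL17RD at 90.2, IL13RA1 at 89.4, IL10RB at 89.1 and IL6ST, the shared chain gp130, at 87.2. IL6R, which pairs with gp130, was not detected. In the TNF receptor family, 12 of 29 genes were detected on all 3 arrays, 41.4%, with a median departure of array 3 of 0.35, led by TNFRSF12A, the TWEAK receptor, with 4191.4, 3140.3 and 2409.6.

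Genes of proliferation had signals in the upper ranks. All 36 measured replication and mitosis genes were detected on all 3 arrays, where 54.9% of named genes were, and 23 of them lay at or above percentile 90. MCM7 and MCM3, subunits of the replicative helicase, had signals of 19539.9, 13818.8 and 18843.2 and 14103.4, 10445.8 and 14962.5. TOP2A, the topoisomerase of dividing cells, had 12539.3, 10411.0 and 16221.0, TYMS, thymidylate synthase, had 12918.5, 9848.9 and 10834.3, and CDC20, which starts anaphase, had 12631.0, 9474.6 and 9967.6. RRM1, FEN1 and UBE2C lay at percentiles 98.7, 98.1 and 98.2. MKI67, the proliferation antigen, lay lower, at 68.4, as did CDC6 at 57.3 and GINS1 at 50.1.

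Of 38 cyclins, CDKs and their inhibitors and effectors, 36 were detected on all 3 arrays, 94.7% beside 54.9% of all named genes. All 3 D cyclins were bright: beside CCND2, CCND1 had signals of 7765.3, 5737.1 and 7240.8 and CCND3 had 7388.4, 6027.4 and 6973.2. CCNB2 lay at percentile 97.7, CDK6, which shares the D cyclins with CDK4, at 96.5, and CCNA2 at 96.4. The inhibitor CDKN1A, p21, was bright as well, with 7128.2, 5326.2 and 5996.3. CDKN2A, which encodes the CDK4 inhibitor p16, was detected at percentile 72.0 with 753.1, 658.1 and 434.0, and array 3 departed by -0.95. Its second probe was also detected on all 3 arrays, and a further probe, with 77.8, 57.4 and 73.0, on none. Which of its transcripts these probes read was not tested. CCNE2 and CDKN1C, p57, were not detected. RB1, the substrate of CDK4, lay at percentile 70.6.

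In the MYC network 11 of 12 genes were detected on all 3 arrays, 91.7% beside 54.9% of all named genes, and 7 with the dimmest probe. MYC had signals of 2297.4, 1618.4 and 2219.8 at percentile 88.5, beside MYCN at 97.2, and MYCL was near the limit, with 116.7, 102.8 and 110.3. Their partner MAX lay at percentile 60.2. MLXIP was not detected.

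KAT2B, the acetyltransferase whose knockdown the series studied, was detected on all 3 control arrays, with signals of 748.6, 608.4 and 1093.0, a mean log2 signal of 9.54 ± 0.36 (SD, n = 3) at percentile 76.2. Its second probe had signals of 86.8, 90.8 and 94.3 and was detected on 2 arrays, and with the median over both probes KAT2B lay at percentile 63.1. Its close relative KAT2A, GCN5, had 1463.1, 1143.6 and 2268.3. Both were highest on array 3. EP300 lay at percentile 63.6, CREBBP, CBP, at 82.0, KAT6A at 90.7 and NCOA1 at 93.0. Of 14 measured acetyltransferases and partners, 13 were detected on all 3 arrays, 92.9% beside 54.9% of all named genes. The remaining 1, NCOA2, was detected on none. NCOA1 and NCOA2 are also known as rare partners of PAX3 in fusions.

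HOX genes, which record position along the body axis, were detected on all 3 arrays for 15 of 29 measured members, 51.7% beside 54.9% of all named genes. In the HOXA cluster, 10 listed genes had no named probe and were not analysed here. HOXA2 was measured, with signals of 155.1, 158.1 and 175.2, and both of its probes were detected on all 3 arrays. HOXB7 had signals of 2454.1, 1767.6 and 1347.6, HOXC6 had 1353.6, 1293.5 and 1274.4 and HOXB2 had 1311.1, 1045.0 and 757.3, followed by HOXB5 at percentile 70.6 and HOXC4 at 69.5. The genes at the 5′ end of the clusters that specify the most posterior and distal parts, HOXC12, HOXD12 and HOXD13, were not detected, and HOXB13 was detected on 1 array. HOXC13 was an exception, with 304.3, 195.9 and 283.5. The median difference of array 3 from the mean of arrays 1 and 2 was -0.40 over the detected HOX genes, and HOXB7 and HOXB2 were lowest on array 3.

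Markers of other cell types were set beside the 54.9% of named genes detected on all 3 arrays and the 37.3% detected on none. Of 18 epithelial markers, 3 were detected on all 3 arrays and 13 on none, and EPCAM and CDH1, E-cadherin, had signals of 81.4, 73.5 and 86.0 and 62.2, 52.5 and 64.5. The 3 detected were KRT7, ELF3 and MUC1, at percentiles between 54.4 and 57.3, and array 3 departed by -1.05 for KRT7, -0.98 for ELF3 and 0.76 for MUC1. Of 15 endothelial markers, 4 were detected on all 3 arrays. CDH5, VWF and KDR were not, although CD34 had 683.1, 593.7 and 719.4 and PECAM1 had 718.2, 500.6 and 677.0.

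Of 25 blood cell markers, 10 were detected on all 3 arrays and 12 on none, 40.0% detected, and 4 with the dimmest probe. PTPRC, the common leukocyte antigen CD45, had signals of 64.8, 83.4 and 75.4 over its brightest of 4 probes and was detected on no array, as were the T cell genes CD3D and CD3E, the B cell gene MS4A1 and the globins HBA1 and HBB. CD68, a lysosomal protein that other cells also use, was the brightest of the list, with 708.7, 693.7 and 790.8. Genes of the same cell types were also detected on all 3 arrays, such as CD79B of B cells, with 301.6, 278.8 and 278.0, and, near the limit, CD79A of B cells, with 102.5, 92.4 and 101.9, and CD8A of T cells, with 96.1, 113.4 and 118.8. The myeloid genes CSF1R, FCGR3A, AIF1 and CD14 lay at percentiles 63.7, 55.2, 55.2 and 48.9. The median percentile of the list was 36.7.

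Of 13 heart markers, 2 were detected on all 3 arrays, 15.4% beside 54.9% of all named genes. They were NPPB, the natriuretic peptide B, with signals of 988.1, 1227.1 and 914.0, and NKX2-5, with 533.6, 355.2 and 361.7. The median departure of array 3 over these 2 genes was -0.45. GATA4, TBX20, HAND1, MYL7 and RYR2 were not detected. Among neural markers, 6 of 23 were detected throughout, 26.1%, led by NES, nestin, with 8738.5, 5628.4 and 5000.6, and TUBB3 with 4250.6, 3531.0 and 3430.4, which muscle precursors and dividing cells also use. SYP, CHGA, GAP43, NEFL and SNAP25 were not detected. Of 12 neural crest and melanocyte markers, 5 were detected on all 3 arrays, 41.7%, and 2 with the dimmest probe. TFAP2A was the brightest at percentile 76.5, and SOX10, MLANA and TYR were not detected.

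Of 23 fibroblast and matrix markers, 13 were detected on all 3 arrays and 10 on none, a detected share of 56.5% that is close to the 54.9% of all named genes. The median departure of array 3 was 0.35. Among the detected were VIM, one of the 25 brightest genes, SPARC, a matrix glycoprotein, at percentile 95.3, COL5A1 at 94.2, THY1 at 84.1 and COL3A1 at 83.3. FN1, fibronectin, DCN, LUM, POSTN, FAP and PDGFRA were not detected. Of 12 smooth muscle markers, 7 were detected on all 3 arrays and 3 on none, 58.3% detected, and 4 with a detection p under 0.01. CALD1, caldesmon, had signals of 5220.9, 3635.5 and 5993.2 at percentile 95.8, TAGLN, transgelin, had 941.7, 747.6 and 619.0, and SMTN, smoothelin, had 478.0, 277.0 and 462.7. MYH11, the smooth muscle myosin, was not detected, and ACTA2 was near the limit, with signals of 108.2, 114.3 and 105.6. Among adipocyte, bone and cartilage markers, 7 of 19 were detected, SOX9, a cartilage factor, at percentile 89.2, ALPL at 84.9 and RUNX2 at 80.4, while PPARG, ADIPOQ, SP7 and ACAN were not.

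Of 39 lineage factors of other tissues, 14 were detected on all 3 arrays and 21 on none, 35.9% detected beside 54.9% of all named genes. RUNX1, a blood factor, lay at percentile 81.1 and ISL1, a factor of heart and motor neurons, at 72.2. Of the pluripotency factors, POU5F1, NANOG and LIN28A were not detected, and SOX2 was detected near the limit by both of its probes, with 139.9, 105.9 and 120.0 from the brighter one.

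The spread between the arrays was small for most genes. The SD over the 3 arrays had a median of 0.22 on the log2 scale over genes detected on all 3 and a 90th percentile of 0.41. It exceeded 0.5 for 412 genes, 3.75% of them, and 1 for 3 genes. With 1 array left out, the SD of the other 2 exceeded 0.5 for 202 genes without array 3, 779 without array 2 and 1084 without array 1. The 3 genes with an SD over 1 were ANKRD18DP, a pseudogene, with signals of 130.2, 231.7 and 119.1, IQGAP3, with 98.7, 182.9 and 161.2, and TMEM161B, with 396.5, 118.0 and 166.1. TAOK1, a kinase, and CRYBB2, a lens crystallin, followed, with SDs of 0.90 and 0.86. Most of the 15 most variable genes were dim, with percentiles from 47.4 to 71.4.

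The departure of array 3 varied with the genomic span of genes. Its difference from the mean of arrays 1 and 2 correlated across 10991 detected genes with genomic span at a Spearman coefficient of 0.38, against 0.11 for the difference between arrays 1 and 2; genes are not independent replicates, and they share the same arrays. In the bin of genes with the shortest span, of 10 equal bins and at a median of 2.30 kb, the median difference was -0.29, and in the bin with the longest, at 234 kb, it was 0.27. The median over all detected genes was 0.11.

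Gene families departed on array 3 to different degrees. Of all 10998 detected genes, 4364 were lower on array 3 and 6634 higher. Of 78 mitochondrial ribosomal protein genes, 73 were lower on array 3, with a median of -0.58, and of 42 NDUF genes of respiratory complex I, 41 were lower, with a median of -0.53. The 77 cytosolic ribosomal protein genes had a median of -0.17 and the 43 PSM proteasome genes one of -0.33. In the other direction, 270 of 348 ZNF zinc finger genes were higher on array 3, with a median of 0.24, and 19 of 21 collagen genes, with a median of 0.40. Array 1 minus array 2 had a median of -0.26 for the NDUF genes, beside 0.01 over all detected genes. For the other families given here it ran from -0.10 for collagen genes to 0.10 for proteasome genes. The cause was not tested, and RNA quality values were not part of the tables used here.

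**Figure D4:**
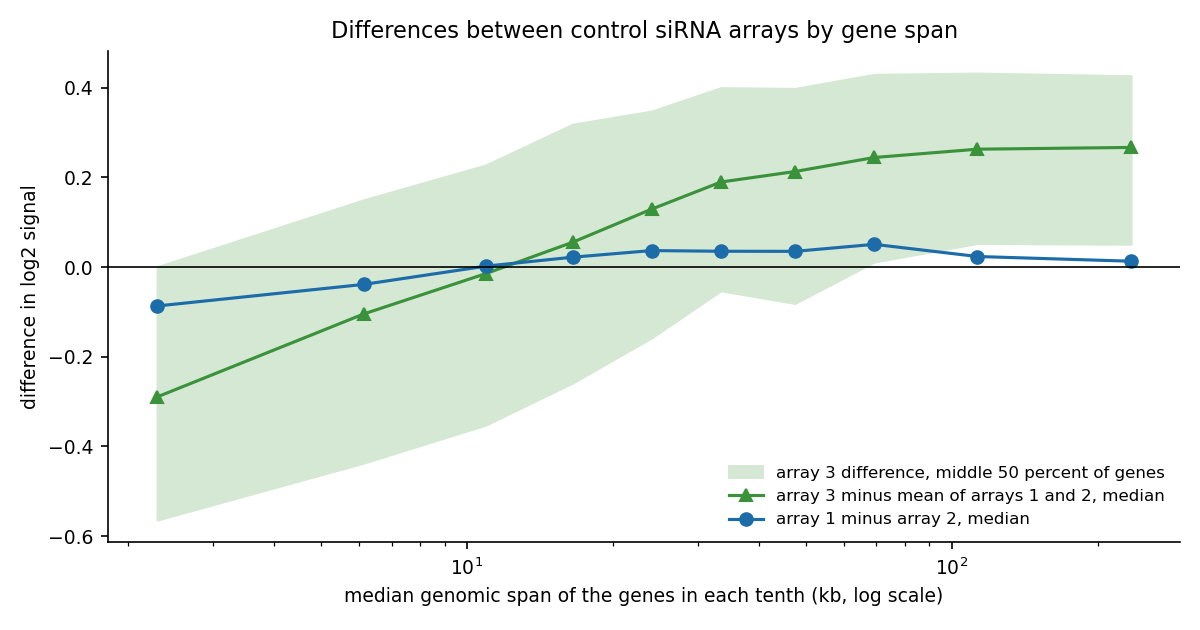
The vertical axis is the difference in log2 signal and the horizontal axis, on a log scale, the median genomic span in kb of 10 bins of detected genes. The median of array 3 minus the mean of arrays 1 and 2 (green) runs from -0.29 at 2.30 kb to 0.27 at 234 kb, and that of array 1 minus array 2 (blue) stays between -0.09 and 0.05; the band holds the middle 50% of genes.

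How a gene was read mattered for many genes with several probes. Of 4380 genes that had more than 1 probe and at least 1 detected on all 3 arrays, 2260 had every probe detected and 1627, 37.2%, had another probe detected on no array. The median gap between the brightest and the dimmest probe was 2.40 on the log2 scale. A gene called undetected here had its brightest probe below the limit on every array, and its other probes were not part of that call. Probes can also fail or sit on a part of the transcript that the cells do not use. Of 17210 probes without a single gene name, 4107 or 23.9% were detected on all 3 arrays, beside 49.3% of probes with 1 name. They nevertheless made up 60 of the 100 brightest probes, and the genes they read were not analysed here.

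Promoters of genes with bright and dim signals differed in composition. Of 17776 named protein-coding genes, 14439 or 81.2% had a RefSeq promoter of 300 bases (GRCh38.p14), and for genes with several the first listed was used. Among genes detected on all 3 arrays the median ratio of observed to expected CpG was 0.85 and the median GC content 65.3%, beside 0.42 and 57.3% among genes detected on none. In 10 equal bins of genes by signal, the median CpG ratio was 0.36 in the dimmest bin and 0.87 in the brightest, and most of the change lay between bins 3 and 6, at 0.44 and 0.83.

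Motifs were searched on both strands. TATAAA, the core of the TATA box, was in 5.68% of the promoters of detected genes and in 16.2% of those of undetected genes, beside 9.41% of the 14439 protein-coding genes and 11.95% of all promoters in the table. GGGCGG, the GC box, was in 70.3% and 41.2%, beside 59.7% of the protein-coding genes and 44.6% of the table. CCGGAAG, a core that ETS factors bind, was in 20.1% and 5.36%, beside 14.6% and 10.7%. CAGCTG, an E-box contained in the CANNTG pattern, was in 16.9% and 18.1%, beside 17.6% and 17.7%. A match describes the letters of the window and not a bound site.

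Promoters of muscle genes and of replication genes are set side by side here, without a test. The 30 detected muscle surface, junction and sarcomere genes with a promoter had a median CpG ratio of 0.50, and 36.7% held CAGCTG and 16.7% TATAAA. The 20 undetected members had a median CpG ratio of 0.21, 40.0% with CAGCTG and 40.0% with TATAAA. The 29 replication and mitosis genes had a median ratio of 0.94, 3.45% with CAGCTG and 10.3% with TATAAA. These groups are small, and their shares are descriptions of the windows.

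**Figure D5:**
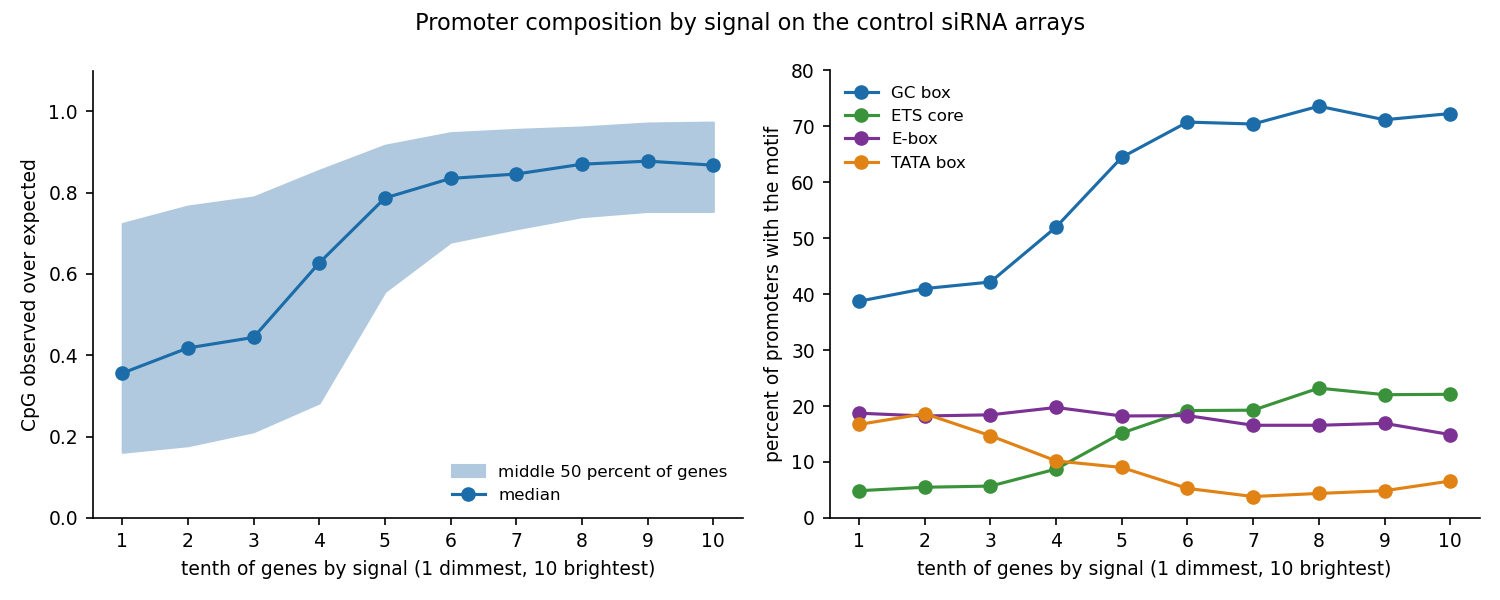
The horizontal axes give 10 equal bins of 14439 protein-coding genes by mean signal on the control siRNA arrays, from 1 (dimmest) to 10 (brightest). The median ratio of observed to expected CpG (left, band for the middle 50% of genes) is 0.36 in bin 1 and 0.87 in bin 10; of the motif shares (right, in percent of promoters), those of GC box and ETS core are higher in bin 10 than in bin 1, that of the TATA box is lower and that of the E-box stays between 14.9% and 19.7%.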

How the data were processed

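Per the labels' protocols, Trizol RNA was purified with a QIAGEN kit, its integrity was assessed, and labelled cRNA made from it was put on Illumina HT-12 arrays. The table the authors deposited holds each probe's signal as intensity, not normalized, per the file headers, and beside it a score. The deposited score is headed as a p-value but rises with the signal and was therefore taken to be 1 minus a detection p-value. A second deposited table holds log2 values centred on each probe's median, with scale and centring found from the signals (r from 0.973 to 0.983 for differences between control arrays). Its normalization is not stated, it holds no levels, and it served only as an alternative. No software of the authors is named in the labels or headers.

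The 3 control siRNA arrays were processed without the others: normexp background correction from the detection p, an offset of 16, quantile normalization and log2 (neqc, limma 3.58.1, R 4.3.3). Of 47323 probes, 30113 had 1 gene symbol in the platform annotation, 8 several and 17202 none; 30074 named probes matched the RefSeq gene table by identifier. Genes were placed in 37 lists of 971 genes, of which 902 had a named probe, and 69 did not and were not analysed here. The members and lists were chosen with earlier results of these data known. Named are the marker genes, KAT2B, PAX3 and FOXO1, genes among the 25 brightest and the 15 most variable, and in each list up to 8 of the brightest detected members and undetected members. Other genes were named after their values were seen. Ranking, detection and window steps were tested on simulated data. No test between groups was made.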

Additional observations from a re-analysis of the deposited data

How the results depend on the processing

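No paired analysis was possible because no comparison between groups was made. The detected and undetected gene counts stayed within 1.5 times of those reported under each alternative tried. Genes detected throughout numbered 10232 with a detection p under 0.01, 8887 with each gene's dimmest probe, and 11164 to 11256 with 1 array left out; genes detected on none numbered 8921, 9650 and 7771 to 7805. With the dimmest probe, 12 of the 37 lists changed their detected count by over 1.5 times: those of somite factors, fusion partners (3, against 6), surface antigens, receptor kinases, ligands, nuclear, chemokine, interleukin and Toll-like receptors, the MYC network, blood cells and neural crest. Of the 37 lists, 15 had a median percentile above 50, and 15 to 17 under the other settings. The 412 genes with an SD over 0.5 became 131 without background correction and 151 in the deposited log2 table, and 202 to 1084 with 1 array left out, lowest without array 3; the cause was not tested. The median percentile around CDK4, 93.3, was 91.7 over 7 genes, 86.7 over 21 genes, and, in settings chosen after seeing the data, 91.5 with the dimmest probe and 92.7 to 93.9 with 1 array left out. The top window was centred on AVIL over 7 genes, on B4GALNT1 over 21 and on ARHGAP9 with the dimmest probe. The CpG ratio differed by 0.51 between the brightest and dimmest of 10 bins, by 0.43 between detected and undetected genes and, also chosen after seeing the data, by 0.49 to 0.51 with 1 array left out. Precision is limited by 3 arrays and, for dim genes, by the background.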
